A study of Mus musculus with 8 samples.

Results

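Dgcr8, Trmt2a, Ranbp1, Hira, Cdc45, Gnb1l and Med15 are 7 of the 32285 genes counted, and all lie on mouse chromosome 16 in the stretch that matches the human 22q11.2 deletion region. They were chosen by symbol, as genes of that stretch with roles tied to RNA, chromatin or the nucleus. The rule used no measured value, but earlier results of these data were known when it was written. All 7 were counted in every library. Single-nucleus RNA sequencing was performed on the petrous temporal bone (PTB) and on the paraflocculus and flocculus of the cerebellum (PF/F) of P5.5 mice, that is at postnatal day 5.5. In each tissue there were 2 wild-type (WT) and 2 Tbx1+/- libraries. WT mice were matched littermates, and Tbx1+/- mice carried 1 mutant allele of Tbx1, a T-box transcription factor gene whose locus lies among the 7. No other allele or treatment was named for either group. Each library pooled 5 mice, both sexes were used in the study, and the line was backcrossed to C57BL/6J. The study describes 2 batches, and libraries with the same replicate number were taken to be of 1 batch.

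The 7 genes have separate roles. Dgcr8 is the RNA-binding partner of Drosha in the Microprocessor, which cuts primary microRNA transcripts, and Trmt2a methylates a uridine in the T loop of tRNAs. Ranbp1 binds Ran-GTP and works with the Ran GTPase-activating protein to end nuclear transport cycles. Hira is the chaperone that deposits histone H3.3 outside of replication, and Cdc45 belongs to the CMG helicase (Cdc45, MCM and GINS), which unwinds DNA in S phase. Gnb1l is a WD-repeat protein linked to the folding of the PI3K-related kinases (PIKKs), and Med15 is a tail subunit of the Mediator complex, which joins transcription factors to RNA polymerase II. In the neonatal cerebellum, granule neuron progenitors (GNPs) divide rapidly before they become granule neurons. In the petrous bone of the same age, chondrocytes and osteoblasts build bone that osteoclasts resorb.

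On GRCm38, with GENCODE vM21 gene models, the members lay on both sides of Tbx1 (chr16:18580979-18590671, minus strand). Med15 (chr16:17651208-17732891, minus strand) was the farthest from it, with 858 kb between the start sites. Ranbp1 (chr16:18239784-18248732, minus strand), Trmt2a (chr16:18248679-18254772, plus strand) and Dgcr8 (chr16:18253948-18289246, minus strand) formed a chain in which neighbours overlap on opposite strands. The start sites of Ranbp1 and Trmt2a were 53 bp apart, and the 3′ ends of Trmt2a and Dgcr8 shared 825 bp. Gnb1l (chr16:18498713-18566679, plus strand) was the nearest to Tbx1, with start sites 92.0 kb apart. Cdc45 (chr16:18780447-18811987, minus strand) and Hira (chr16:18877037-18970309, plus strand) lay on the far side of Tbx1. The use of strand in counting is not given in the sources used here, so UMIs in the shared stretch of Trmt2a and Dgcr8 may not be told apart. The same holds for the 209 bp that Cdc45 shares with Ufd1 on the opposite strand, and Rtl10 lies inside Gnb1l on the same strand.

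The 300-base windows from 250 bases before to 50 bases after the start of all 7 genes were taken from NCBI RefSeq (GRCm38.p6). Shown 5′ to 3′ are those of the 3 genes that were called in GNPs, as the results below turn on them:
Ranbp1, chr16:18248645-18248944, minus strand: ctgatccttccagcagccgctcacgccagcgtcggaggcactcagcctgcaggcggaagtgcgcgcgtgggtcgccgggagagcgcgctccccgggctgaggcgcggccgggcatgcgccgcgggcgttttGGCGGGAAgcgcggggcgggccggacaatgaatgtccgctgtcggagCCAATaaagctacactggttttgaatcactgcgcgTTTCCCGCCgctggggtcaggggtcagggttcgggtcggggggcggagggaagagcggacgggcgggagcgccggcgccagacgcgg
Dgcr8, chr16:18289119-18289418, minus strand: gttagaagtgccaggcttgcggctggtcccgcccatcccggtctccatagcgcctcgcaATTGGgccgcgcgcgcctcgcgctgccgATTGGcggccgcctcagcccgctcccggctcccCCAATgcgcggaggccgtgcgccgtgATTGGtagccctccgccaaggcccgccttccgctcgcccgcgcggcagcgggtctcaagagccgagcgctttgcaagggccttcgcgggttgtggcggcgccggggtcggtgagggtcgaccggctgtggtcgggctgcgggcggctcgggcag
Cdc45, chr16:18811923-18812222, minus strand: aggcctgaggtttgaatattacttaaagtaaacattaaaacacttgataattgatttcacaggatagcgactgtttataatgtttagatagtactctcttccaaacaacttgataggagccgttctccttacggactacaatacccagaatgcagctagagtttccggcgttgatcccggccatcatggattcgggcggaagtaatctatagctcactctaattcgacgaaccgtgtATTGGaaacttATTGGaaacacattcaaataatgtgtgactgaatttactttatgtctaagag

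Capitals mark every match of 3 kinds of word, searched on both strands of each window: CCAAT (which reads as ATTGG in the other direction), the E2F-type words TTTCCCGC, TTTCGCGC, TTTGCCGC, TTTGGCGC and GGCGGGAA, and the ETS-type word CCGGAAG. The Ranbp1 window held 1 TTTCCCGC and 2 GGCGGGAA, of which 1 overlaps the TTTCCCGC, and 1 CCAAT. Of 32851 windows of the same length in the RefSeq table, 1.07% held TTTCCCGC and 0.0517% held GGCGGGAA at least 2 times. GGCGGGAA was found at least 1 time in 2.19% of windows, and any of the 5 E2F-type words in 3.89%. The Trmt2a window lies on the opposite strand and shares 288 of its 300 bases with that of Ranbp1, so that both hold the same words. The Dgcr8 window held 4 CCAAT words, as many or more than which were found in 1.06% of windows. The Cdc45 window held 2 CCAAT words, and 11.7% of windows held at least 2. RefSeq starts can differ from the GENCODE starts given above. The Hira window, chr16:18876500-18876799, ends before the GENCODE start of Hira. Med15 had windows at chr16:17722851-17723150 and chr16:17722898-17723197, both inside the GENCODE gene and away from its start. Hira held 1 and either Med15 window held 2 copies of CCGGAAG. Of all windows 8.86% contained it at least once and 1.48% at least 2 times, and Gnb1l held none of the words. These matches describe letters only.

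Per library, 5981 to 9977 annotated PTB nuclei (median depth 3853 to 4758 UMIs) and 9153 to 13835 annotated PF/F nuclei (2610 to 3503 UMIs) were used. UMIs are unique molecular identifiers, each standing for 1 captured transcript. Levels are given as CPM, that is UMIs of the gene per 1000000 UMIs of the summed nuclei, and cell types are those of the authors' annotation. Between 11 and 60 barcodes were shared by any pair of libraries, at most 0.503% of the smaller one. Tbx1 was at 38.9 and 39.4 CPM in the PTB of WT mice and at 26.3 and 35.7 CPM in Tbx1+/- mice, lower within both batches. Its log2 change was -0.34 ± 0.17 (SE), with an edgeR adjusted p of 1.00. Tbx1 in the PF/F was at 0.0949 to 0.265 CPM in the 4 libraries, which is 4 to 13 UMIs each. Which part of the gene the allele lacks is not given in the sources used here, so these 3′ counts do not test the allele itself.

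Summed over all annotated nuclei, 5 of the 7 genes had levels that did not overlap between the tissues. The PTB annotation used here holds only connective tissue, chondrocyte, osteoblast and osteoclast types. The study also describes immune cells and neurons in the bone, which these sums leave out. Ranbp1 was at 89.5 ± 21.2 CPM (SD, n = 4 libraries) in the PF/F and 42.5 ± 6.79 CPM in the PTB, a ratio of 2.11. Cdc45 was at 9.78 ± 2.01 and 6.89 ± 0.786 CPM, and Trmt2a was at 22.7 ± 1.88 and 18.5 ± 0.569 CPM. Gnb1l and Med15 went the other way. Gnb1l was at 11.5 ± 0.675 CPM in the PF/F and 24.4 ± 0.650 CPM in the PTB, and Med15 was at 66.2 ± 3.36 and 107 ± 6.27 CPM. Dgcr8, at 71.9 ± 2.99 and 73.2 ± 2.41 CPM, and Hira, at 107.7 ± 5.20 and 102.7 ± 2.92 CPM, overlapped. Of all genes with at least 40 UMIs, 71.5% did not overlap between the tissues, close to the share of 5 in 7. Only the bone was pulverised before nuclei were released, so tissue and preparation cannot be told apart. In such sums fewer cells of a type and less RNA per cell cannot be told apart either.

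Per kilobase of gene, Ranbp1 had the highest level of the 7 in both tissues, at 10.0 CPM per kb in the PF/F and 4.74 in the PTB. This order depends on gene length, and in CPM the highest were Hira in the PF/F and Med15 in the PTB. Trmt2a followed at 3.72 and 3.03 CPM per kb, and Dgcr8 at 2.04 and 2.07. Hira (1.15 and 1.10) and Med15 (0.810 and 1.32) were near 1 CPM per kb. Cdc45 (0.310 and 0.218) and Gnb1l (0.169 and 0.359) were the lowest. Gene length includes introns, since intronic reads were counted, and exons make up 87.4% of Trmt2a but 6.21% of Gnb1l.

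All 7 genes differed among the annotated types of both tissues (edgeR F test over types, adjusted p of 0.0013 or lower), as did 91.1% of all genes in the PTB and 96.8% in the PF/F. For Trmt2a this was lost in WT libraries alone in the PTB (edgeR adjusted p = 0.075) and in Tbx1+/- libraries alone in the PF/F (edgeR adjusted p = 0.12). Each type was then compared with the mean of the other types, and a gene was called where the adjusted p was under 0.05 and the change above 1.5-fold. In the PF/F, 10 of 112 comparisons of a member with a type were called, which is 8.93%, against 26.4% of all comparisons. In the PTB, 7 of 105 were called, or 6.67%, against 20.5%. These shares are descriptions without a test. The calls belonged to Cdc45 in 10 cases, Dgcr8 in 3, Ranbp1 in 2, and Trmt2a and Med15 in 1 each, and Hira and Gnb1l had none.

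**Figure D1:**
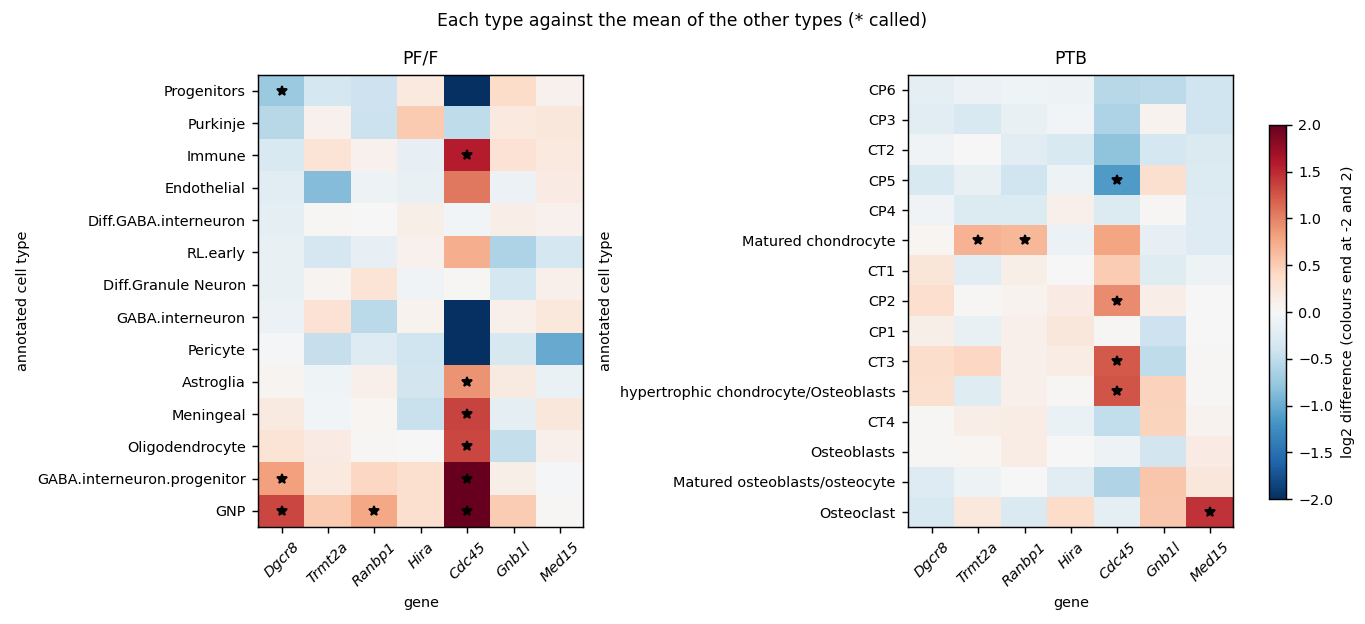
Colour gives the log2 difference between annotated types (rows, 14 of 16 in the PF/F and all 15 in the PTB) and the mean of the other types for the 7 genes (columns), fitted on 4 libraries per tissue, and stars mark called comparisons. Cdc45 has 10 of the 17 stars, and the starred Dgcr8 boxes in GNPs (1.33) and the Med15 box in osteoclasts (1.45) stand out in their columns; the darkest blue Cdc45 boxes rest on 0 to 2 UMIs and are not called.

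Dgcr8 had its highest level in GNPs, the dividing precursors of granule neurons. It was at 156 and 153 CPM in the WT libraries and at 155 and 159.8 CPM in the Tbx1+/- libraries, and the genotypes overlapped. The GNP label fits its markers, since the summed granule lineage markers (Neurod1, Pax6, Zic1, Atoh1, Barhl1) were highest there. Dgcr8 in GNPs was higher than the mean of the other types by 1.33 ± 0.05 on the log2 scale (SE, adjusted p = 1.9e-40), where 20.2% of all genes were called higher. The median over all genes in this comparison was 0.14, and it moved to -0.06 with RLE factors and to -0.12 with DESeq2, under which Dgcr8 was still called. With these scalings the genes called higher and lower went from 3217 and 1917 to 2103 and 2540 (RLE) and 1939 and 4357 (DESeq2), so that 13.2% and 12.2% of all genes were called higher. The counts over gene lists below are therefore given with these scalings too. Progenitors of GABAergic interneurons came next, at 108 and 117 CPM in WT and 117 and 98.7 CPM in Tbx1+/- libraries. Their difference was 0.83 ± 0.07 (adjusted p = 2.4e-16), with 15.7% of genes called higher in that type. Differentiated granule neurons, the progeny of GNPs, were at 49.6 to 51.0 CPM over the 4 libraries, and Purkinje cells had the lowest WT mean, 34.4 CPM. None of the 15 other types reached the GNP level in any WT library. The small type annotated as Progenitors, with 20 to 72 nuclei a library, was called lower (-0.75 ± 0.21, adjusted p = 0.0021), against 15.0% of genes, but not with WT or Tbx1+/- libraries alone (adjusted p of 0.053 and 0.058), with RLE factors or DESeq2 (-0.56), or without the nuclei with the most UMIs (-0.42).

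In the PTB, Dgcr8 varied less, from a WT mean of 47.2 CPM in matured osteoblasts and osteocytes to 90.3 CPM in CT3, 1 of 4 annotated connective tissue types. CP2, 1 of 6 types annotated as chondrocyte progenitors, was at 81.9 and 94.4 CPM in WT and 103.3 and 86.9 CPM in Tbx1+/- libraries. It overlapped with CT3. The adjusted p was under 0.05 in 9 of the 15 types, and no difference was above 1.5-fold.

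Of the 12 other Microprocessor and microRNA genes measured, 2 (16.7%) were called higher and 1 lower in GNPs, against 20.2% of all genes called higher, and with RLE or DESeq2 0 were called higher and 1 lower. Srsf3, a splicing factor that also aids primary microRNA processing, was higher by 0.69 ± 0.04 (0.48 and not called with RLE or DESeq2), and the helicase gene Ddx5 had 0.58 ± 0.05, just under the fold threshold. Ddx17 (0.08) and Ago3 (-0.09) were not called. Named after their values were seen, the 2 other calls were the Argonaute genes Ago2 (0.69, and 0.48 with either scaling) and Ago4 (-0.69), of which only the latter was called under all 3. The median over the list was 0.19, against 0.14 over all genes, and -0.01 with RLE and with DESeq2.

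Trmt2a passed the fold threshold in 1 type only. In GNPs it was at 33.3 and 36.3 CPM in WT and 30.9 and 29.0 CPM in Tbx1+/- libraries, and the log2 difference of 0.52 ± 0.09 (adjusted p = 1.4e-06) was under 1.5-fold. Its call was in matured chondrocytes of the PTB. There it was at 33.4 and 41.3 CPM in WT and 24.0 and 26.9 CPM in Tbx1+/- libraries, while the other types had WT means of 16.1 to 23.3 CPM. The log2 difference was 0.70 ± 0.20 (adjusted p = 0.0044), and 10.1% of genes were called higher in that type. It was not called without WT replicate 2 (0.57, adjusted p = 0.068) or in Tbx1+/- libraries alone (0.50, adjusted p = 0.26). Matured chondrocytes numbered 48 to 254 nuclei a library, and gave 60 UMIs of Trmt2a in all. They also held the highest summed erythroid markers (Hba-a1, Hba-a2, Hbb-bs) of the PTB types, a mean of 3567 CPM against 524 CPM in the median type. The part of these in the Trmt2a call was not tested.

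Of 17 other tRNA methyltransferase genes tested, 6 (35.3%) were called higher in GNPs, against 20.2% of all genes, with a median of 0.44. With RLE and with DESeq2 the count was 1 higher and 1 lower, with a median of 0.24. Trmt13 was higher by 0.62 ± 0.05 (0.42 and not called with either scaling), and Nsun6 (0.38), Trmt1l (0.02) and Trmt1 (-0.06) were not called. Trmt2b, the paralogue of Trmt2a, was among the 6, at 0.70, lost its call with RLE (0.49) and DESeq2 (0.51), and is named after its value was seen.

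Ranbp1 was highest in GNPs, at 172 and 109.9 CPM in WT and 149 and 119 CPM in Tbx1+/- libraries. Values of batch 1 stood above those of batch 2 in both genotypes. Compared within libraries, GNPs were higher than the other types by 0.77 ± 0.05 on the log2 scale (adjusted p = 6.5e-26). With RLE factors and with DESeq2 the difference was 0.56 and fell under the fold threshold. Interneuron progenitors had 118 and 94.9 CPM in WT libraries and a difference of 0.41 ± 0.07. The lowest WT mean, 39.7 CPM, was in GABAergic interneurons. In the PTB, matured chondrocytes were called higher (0.66 ± 0.14, adjusted p = 0.00017), at 62.6 and 75.2 CPM in WT and 30.0 and 74.8 CPM in Tbx1+/- libraries. The call was lost without WT replicate 2 (0.54) and without Tbx1+/- replicate 2 (0.54). Summed erythroid markers (Hba-a1, Hba-a2, Hbb-bs) in this type ranged from 797 to 11520 CPM and ribosomal protein genes from 27957 to 43722 CPM, and their part in the result was not tested.

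Ranbp1 was the member with the widest spread between batches. All annotated PF/F nuclei together were at 113 and 69.7 CPM in WT and 101.7 and 73.6 CPM in Tbx1+/- libraries. Ribosomal protein genes moved with it, at 31398 and 15641 CPM in WT and 31261 and 18149 CPM in Tbx1+/- libraries. In the PTB, Ranbp1 was at 48.1 and 32.8 CPM in WT and 46.1 and 42.8 CPM in Tbx1+/- libraries. Ribosomal protein genes had the same order over the 4 libraries, from 30605 CPM in WT replicate 1 to 13778 CPM in WT replicate 2. Mitochondrial transcripts, which nuclei should not hold, also ranged with batch, from 4075 to 10507 CPM in the PF/F. Their part in the spread of Ranbp1 was not tested.

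Of 16 other genes of the Ran cycle and transport receptors, 10 (62.5%) were called higher in GNPs and none lower, against 20.2% of all genes called higher, with a median of 0.74. With RLE and with DESeq2, 8 were called higher and none lower, with a median of 0.53. The exportin gene Xpo1 was higher by 0.91 ± 0.05 and was called under all 3 scalings. The import receptor genes Tnpo1 (0.42), Kpna3 (0.49) and Kpna4 (0.17) were not called.

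The PF/F WT means of Hira ran from 86.3 CPM in astroglia to 144 CPM in GNPs, a ratio of 1.67. GNPs were at 129 and 159 CPM in WT and 137 and 151 CPM in Tbx1+/- libraries, and 6 of the 15 other types, interneuron progenitors and Purkinje cells among them, overlapped with them in WT libraries. The log2 difference of GNPs was 0.31 ± 0.05, and that of Purkinje cells, which do not divide, was 0.53 ± 0.06. In the PTB, osteoclasts had the highest WT mean, 123 CPM, and CT2 the lowest, 72.2 CPM. In 5 types of each tissue the adjusted p was under 0.05, always with a change under 1.5-fold.

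Of 14 genes of histone H3.3, the Hira complex and other histone chaperones, 8 (57.1%) were called higher in GNPs and none lower, against 20.2% of all genes called higher, and with RLE and with DESeq2 the count was 6 and none. The most abundant of them were not among the 8: the histone genes H3f3b and H3f3a both had 0.56 ± 0.05, Atrx had 0.36 and Ubn2, a subunit of the Hira complex, had -0.25. The 8 that were called, named after their values were seen, were Nasp, Rbbp4, Rbbp7, Asf1a, Asf1b, Daxx, Chaf1a and Chaf1b, of which Rbbp7 and Daxx lost their calls with these scalings. Chaf1a and Chaf1b encode subunits of CAF-1, which deposits replicative histone H3 at replication forks and is not an H3.3 chaperone.

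Cdc45 had the largest called differences among types of the 7 in the PF/F, while in the PTB the largest was that of Med15 in osteoclasts. In GNPs Cdc45 was at 32.3 and 27.4 CPM in WT and 33.8 and 30.4 CPM in Tbx1+/- libraries. In interneuron progenitors it was at 15.5 and 19.8 CPM in WT and 17.0 and 19.6 CPM in Tbx1+/- libraries. Differentiated granule neurons were at 2.65 to 5.22 CPM, so that neither progenitor type overlapped with them in any library. The log2 difference of GNPs from the other types was 2.89 ± 0.15 (adjusted p = 5.0e-30), and that of interneuron progenitors was 2.06 ± 0.26 (adjusted p = 1.3e-10). GABAergic interneurons gave 2 UMIs of Cdc45 over 4 libraries, the type annotated as Progenitors gave 1, and pericytes gave 0. Counts are as deposited, before the authors' correction for free RNA, and the part of free RNA in the low levels was not tested.

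Cdc45 was also called higher in oligodendrocyte, astroglial, meningeal and immune nuclei of the PF/F. The mean of the other types counts each type alike. It therefore includes GABAergic interneurons, Progenitors and pericytes, which gave almost no UMIs of Cdc45, and their part in these calls was not tested. All annotated PF/F nuclei together were at 8.11 to 12.1 CPM. Oligodendrocyte nuclei, at 7.88 to 14.1 CPM over the libraries, had 1.34 ± 0.33 (adjusted p = 0.00056), and 14.1% of genes were called higher there. Astroglia, at 6.41 to 9.56 CPM, had 0.90 ± 0.29 (adjusted p = 0.0072), against 18.4% of genes, and were not called with DESeq2 (0.43) or in Tbx1+/- libraries alone. Meningeal nuclei (1.35 ± 0.43, adjusted p = 0.010, against 16.9% of genes) and immune nuclei (1.57 ± 0.52, adjusted p = 0.013, against 16.4%) rested on 30 and 18 UMIs. The meningeal call was lost without Tbx1+/- replicate 1 (0.90, adjusted p = 0.33), and the immune call without WT replicate 2 (1.09, adjusted p = 0.23). Neither was called in WT libraries alone.

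**Figure D2:**
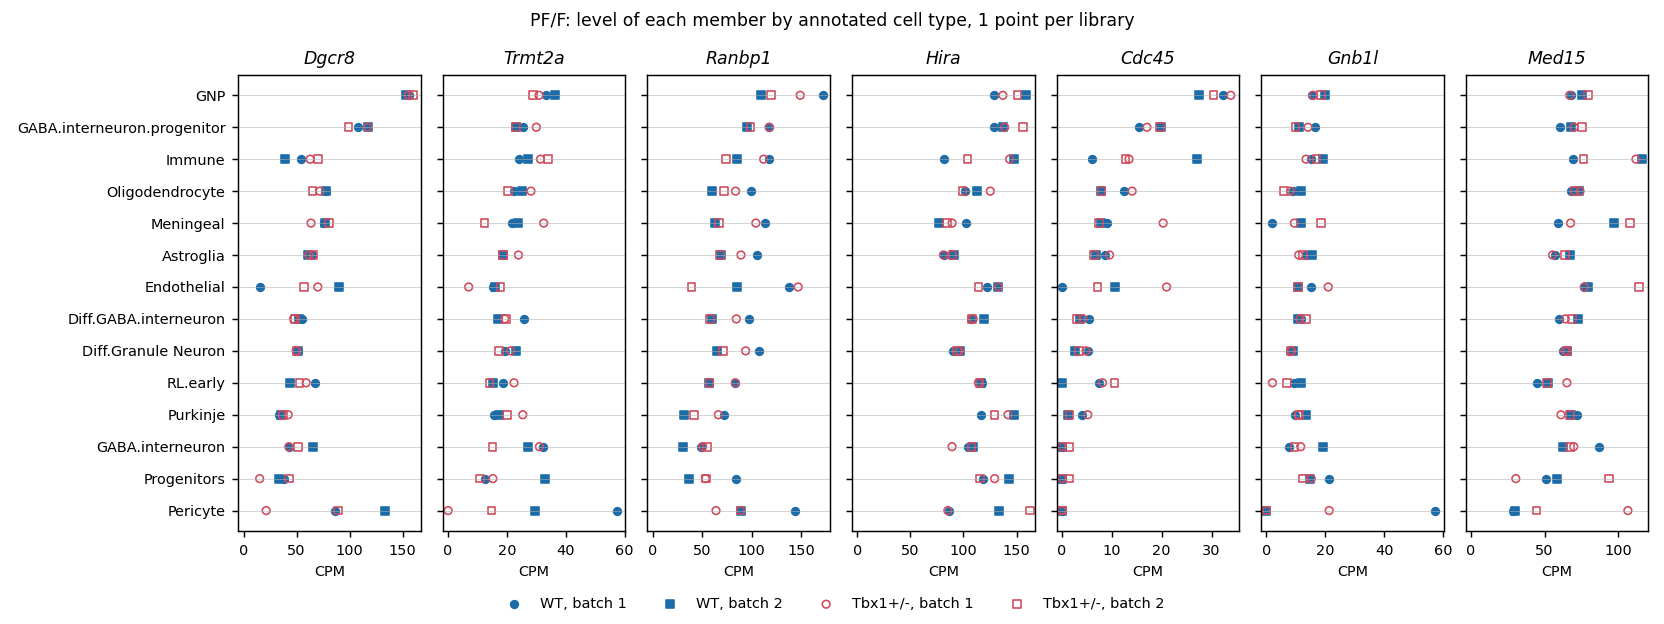
Level of each of the 7 genes in CPM (horizontal axes) in 14 of the 16 annotated types of the PF/F (rows, ordered by the WT mean of Cdc45), with 1 point per library, filled for WT and open for Tbx1+/-, circles for batch 1 and squares for batch 2. GNPs lie at the right in the Dgcr8 and Cdc45 panels, at 153 to 159.8 and 27.4 to 33.8 CPM; pericytes, endothelial cells and Progenitors have few nuclei and wide spreads.

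In the PTB, the highest WT mean of Cdc45 was in matured chondrocytes, from 2.09 and 24.3 CPM and 19 UMIs over all libraries, and was not called. Cdc45 was called higher in CT3, CP2 and the type annotated as hypertrophic chondrocytes and osteoblasts. CT3 was at 10.4 and 11.8 CPM in WT and 12.6 and 14.5 CPM in Tbx1+/- libraries (log2 1.23 ± 0.27, adjusted p = 0.00015, against 10.3% of genes called higher). CP2 was at 9.88 and 9.44 CPM in WT and 13.0 and 11.1 CPM in Tbx1+/- libraries (0.95 ± 0.18, adjusted p = 9.1e-06, against 9.63%). The hypertrophic type was at 9.32 and 11.6 CPM in WT and 12.9 and 18.8 CPM in Tbx1+/- libraries (1.26 ± 0.16, adjusted p = 9.2e-10, against 9.36%). CP5 was called lower, at 0.855 to 5.38 CPM (-1.13 ± 0.36, adjusted p = 0.0080), where 8.9% of genes were called lower. That call rested on 18 UMIs and was lost in WT libraries alone (adjusted p = 0.14), in Tbx1+/- libraries alone (0.093) and without WT replicate 1 (0.10). Summed G2/M markers were highest in CP2 and next highest in CT3, and S phase markers were highest in CP2 and next highest in the hypertrophic type.

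Of 23 other genes of the CMG helicase and origin firing, 22 were called higher in GNPs (19 with RLE and with DESeq2), against 20.2% of all genes, with a median of 1.84, and 20 in interneuron progenitors (18 with RLE and with DESeq2), against 15.7%. Topbp1 (1.76 ± 0.05), Mcm7 (1.80 ± 0.05) and Orc6 (0.72 ± 0.05) were among the 22, and Orc6 was not called with the other scalings. The exception was Orc2, an origin recognition subunit, with 0.56 ± 0.05. In the PTB, 11 of 22 tested were called higher in CT3 (against 10.3% of all genes), 10 in the hypertrophic type (against 9.36%) and 9 in CP2 (against 9.63%). The counts were 11, 9 and 9 with RLE and 11, 9 and 10 with DESeq2. All 23 S phase markers and all 27 G2/M markers were called higher in GNPs under the 3 scalings. Of 32 tested genes of the 22q11.2 stretch, the members included, 5 were called higher in GNPs, among them Cdc45, Dgcr8 and Ranbp1, and 2 were called lower, with a median of -0.01. With RLE 4 were called higher and 4 lower, and with DESeq2 4 and 8. The most abundant of that list outside the members, Pi4ka, had -0.55 ± 0.06, and -0.76 and a call with either scaling.

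Across the 15 PTB types and the 14 PF/F types with at least 20 nuclei in each WT library, the WT level of Cdc45 followed the summed S phase markers, with Pearson's r of 0.94 and 0.89 on log2(CPM + 1). Dgcr8 did so too, with r of 0.89 and 0.87. Ranbp1 had r of 0.57 and 0.87, Hira 0.60 and 0.29 and Trmt2a 0.57 and 0.45. Med15 (-0.04 and 0.22) and Gnb1l (-0.13 and 0.28) did not follow the markers. With the summed G2/M markers, r was 0.87 and 0.92 for Cdc45, 0.84 and 0.85 for Dgcr8 and 0.61 and 0.85 for Ranbp1. For Hira it was 0.54 and 0.13, for Trmt2a 0.64 and 0.29, for Med15 0.10 and 0.18, and for Gnb1l -0.11 and 0.10. These profiles do not tell S phase from G2/M. The types share libraries and depth, so these values describe the profiles and carry no test. The genes with the WT profiles most like that of Cdc45 in the PTB were Atad5 (r = 0.97), Hells (0.95) and Fignl1 (0.94), and those most like Dgcr8 were Zgrf1, Cenpp and Pole2 (0.96, 0.95 and 0.95). In Tbx1+/- libraries, which did not choose them, the same pairs had r of 0.83 to 0.86 and 0.79 to 0.85. In the PF/F the nearest profiles were those of Rsrc1 and Anp32e for Cdc45 (each 0.97) and of Ginm1, Psrc1 and Lsm2 for Dgcr8 (0.95 to 0.96), and Eif5a was nearest to Ranbp1 (0.97). In Tbx1+/- libraries r was 0.89 and 0.90 for the Cdc45 pairs, 0.56, 0.83 and 0.67 for the Dgcr8 pairs and 0.85 for Eif5a.

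Levels were then compared between nuclei with and without cell cycle marker UMIs, within GNPs and over all annotated PTB nuclei. A nucleus was S-marked with at least 2 UMIs of S phase markers and more of these than of G2/M markers, G2/M-marked with at least 2 UMIs of G2/M markers and at least as many as of S markers, and unmarked with 0 of both, and the other nuclei were left out. The members were not among the markers, and the split is a range of marker UMIs, not a cell type. The same rule marked 68.1 to 77.9% of Purkinje cells, which do not divide, and 46.8 to 56.3% of differentiated granule neurons. A mark alone therefore does not show that a nucleus was cycling. Few GNPs were unmarked, 28 to 42 a library. Their median depth of 1738 to 2130 UMIs was below the 2136 to 2854 of S-marked and 2507 to 3273 of G2/M-marked GNPs of the libraries.

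Dgcr8 was at 160.8 ± 3.25 CPM (SD, n = 4 libraries) in S-marked GNPs, 151 to 168 CPM in G2/M-marked GNPs and 54.7 ± 23.0 CPM in unmarked GNPs, the last from 15 UMIs in all. Marked and unmarked nuclei did not overlap for Dgcr8. The same held for Gnb1l, at 0 to 12.3 CPM in unmarked GNPs, from 1 UMI in all, and at 12.4 CPM or more in marked GNPs. The share of all genes with such a separation was not counted. The log2 differences were 1.74 ± 0.32 for S (adjusted p = 4.1e-06) and 1.78 ± 0.31 for G2/M (adjusted p = 8.6e-07), where 3.72% and 5.91% of genes were called higher. Cdc45 was at 39.5 ± 4.68 CPM in S-marked and 26.9 ± 2.81 CPM in G2/M-marked GNPs. In unmarked GNPs it gave 0 of 271636 UMIs over the 4 libraries, which allows up to 11.0 CPM at 3 counts. With the UMIs of the 4 libraries pooled (39.7 CPM in S-marked and 27.1 CPM in G2/M-marked GNPs), Cdc45 was at least 3.59-fold and at least 2.45-fold higher than that limit, by counting error only. It was called in both. As it passed the count filter only through the marked sets, these calls add no support to the counting limit. The other 5 genes were not called. Hira was at 156 ± 13.6, 136 ± 12.5 and 127 ± 24.7 CPM in S-marked, G2/M-marked and unmarked GNPs, and Ranbp1 at 149.8 ± 35.0, 128 ± 25.5 and 128 ± 61.1 CPM.

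In the PTB the unmarked set was larger, 761 to 1200 nuclei a library. It pooled all 15 types, and the share of marked nuclei differed among them, from 43.8 to 56.1% in matured osteoblasts and osteocytes to 71.5 to 74.7% in CT3, so that marked and unmarked sets differ in their mix of types. Its median depth was 3144 to 3792 UMIs, against 4357 to 5469 in S-marked nuclei. Cdc45 was at 9.20 ± 1.06 CPM in S-marked, 9.47 ± 1.70 in G2/M-marked and 2.10 ± 0.470 in unmarked nuclei. The log2 differences were 2.10 ± 0.22 and 2.16 ± 0.22 (adjusted p = 4.1e-06 and 1.1e-06), and 1.39% and 2.57% of genes were called higher. Dgcr8 was at 75.7 ± 3.48, 86.6 ± 3.10 and 58.9 ± 4.11 CPM, again without overlap between marked and unmarked nuclei. The share of all genes that separate in this way was not counted here either. Its log2 differences of 0.34 ± 0.06 and 0.54 ± 0.06 passed the adjusted p (0.0012 and 5.1e-06) but were under 1.5-fold. With at least 3 marker UMIs the G2/M difference was 0.77, and it was called. CP1 to CP6 are annotated as chondrocyte progenitors. CP1 held the highest summed osteoblast markers (Alpl, Bglap, Runx2) of the PTB types, a mean of 9621 CPM against 7634 CPM in the hypertrophic type. Over CP1 to CP6 pooled, an alternative chosen after seeing the data, Cdc45 differed by 1.64 ± 0.40 and 2.21 ± 0.39, both called, and Dgcr8 by 0.31 ± 0.09 and 0.52 ± 0.09. Unmarked nuclei of CP1 to CP6 gave 11 UMIs of Cdc45 in all. As Cdc45 passed the count filter there only through the marked sets, its calls in CP1 to CP6 add no support. The S call of Cdc45 there was lost without WT replicate 1, WT replicate 2 or Tbx1+/- replicate 2 (adjusted p of 0.11, 0.070 and 0.054). Trmt2a, Gnb1l, Med15, Hira and Ranbp1 were not called in either set, with log2 differences of 0.04 to 0.17 in all PTB nuclei.

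**Figure D3:**
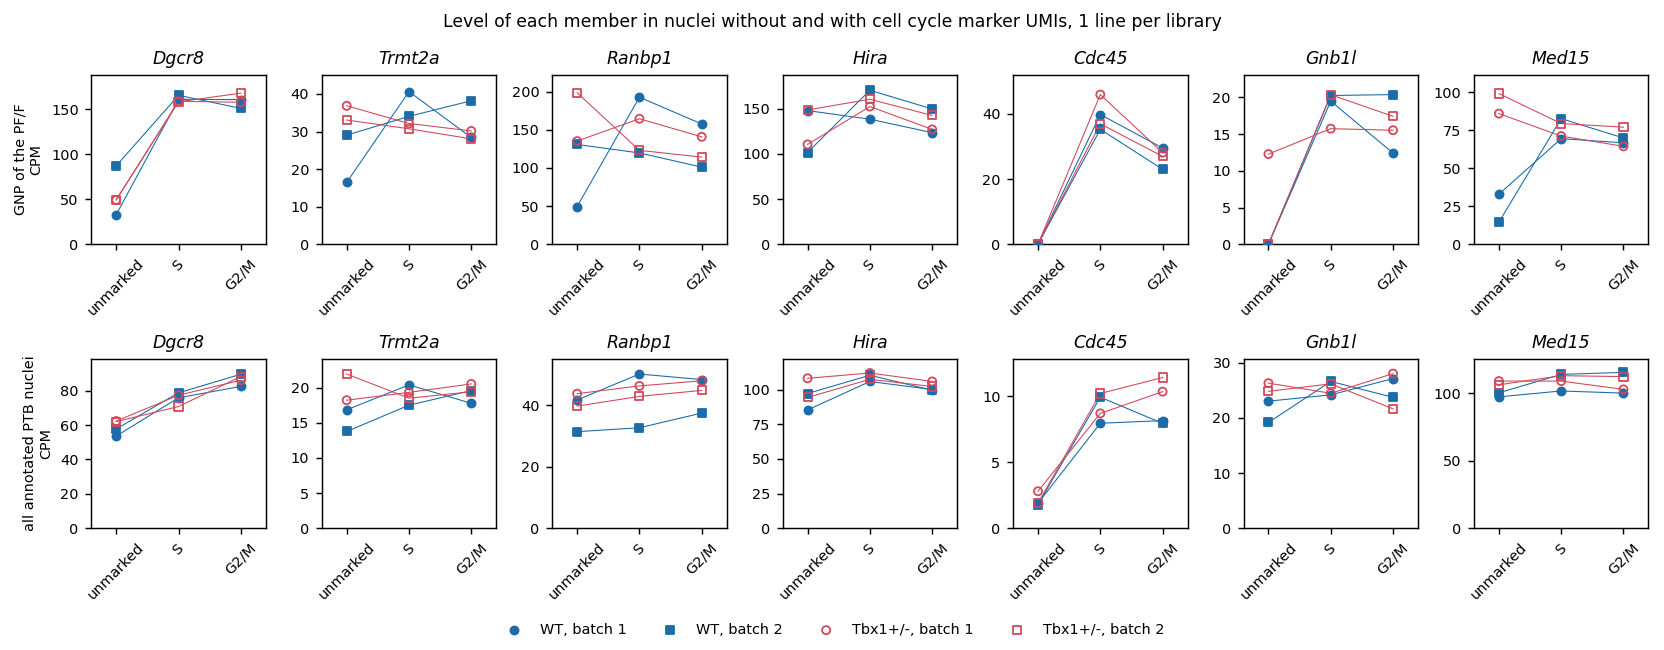
Level of each gene in CPM (vertical axes, from 0) in unmarked, S-marked and G2/M-marked nuclei of GNPs (upper row) and of all annotated PTB nuclei (lower row), with 1 line per library, filled points for WT and open points for Tbx1+/-. Lines for Dgcr8 and Cdc45 climb from unmarked to marked nuclei in all 4 libraries of both rows, from 54.7 to 160.8 CPM for Dgcr8 in GNPs. Those for Gnb1l climb in GNPs too, where its unmarked points rest on 1 UMI. Unmarked GNPs hold only 28 to 42 nuclei a library and scatter widely for the other genes.

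Gnb1l was higher in the PTB than in the PF/F, and it had no called type. Its highest WT level in the PTB was in the hypertrophic type, at 36.3 and 36.4 CPM in WT and 30.3 and 32.7 CPM in Tbx1+/- libraries (log2 0.47 ± 0.09, adjusted p = 1.0e-05). Osteoclasts (0.54 ± 0.11) and matured osteoblasts and osteocytes (0.56 ± 0.16) were close to the fold threshold. CP6 (-0.52 ± 0.16), CT3 (-0.51 ± 0.18) and CP1 (-0.41 ± 0.12) were at the low end. Along the order of WT means no neighbouring types were apart in both WT libraries. In the PF/F, GNPs were at 15.4 and 19.9 CPM in WT and 15.8 and 18.6 CPM in Tbx1+/- libraries (0.51 ± 0.11, adjusted p = 4.6e-05), against 7.87 to 8.94 CPM in differentiated granule neurons. Among 13 PIKK and chaperone genes, 4 (30.8%) were called higher in GNPs, against 20.2% of all genes, with a median of 0.51. With RLE 3 were called, and with DESeq2 2. The PIKK family genes Prkdc (0.53), Atr (0.49), Smg1 (-0.02) and Trrap (-0.18) were not called. The 4, named after their values were seen, were Atm (1.30), Tti1 (0.89), Pih1d1 (0.84) and Ruvbl2 (0.65), of which the last 3 encode chaperone factors. Ruvbl2 lost its call with both other scalings, and Pih1d1 with DESeq2.

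Med15 was set apart by osteoclasts. They were at 219 and 244 CPM in WT and 233 and 249 CPM in Tbx1+/- libraries. All 14 other PTB types were at 71.1 to 119 CPM in every library, so that no other type overlapped with osteoclasts. The log2 difference was 1.45 ± 0.05 (adjusted p = 2.2e-37), called under every alternative tried, and 19.8% of genes were called higher in osteoclasts. The osteoclast markers Acp5 and Ctsk summed to 5101 to 7178 CPM there, against 572 CPM in the median type. The type also held the highest sums of the immune markers Csf1r, C1qa and Ptprc (736 to 802 CPM) and of the muscle markers Ttn and Myh3 (653 to 830 CPM), and the part of other cells in the Med15 level was not tested. Between S-marked and unmarked PTB nuclei the log2 difference of Med15 was 0.05 ± 0.05. In the PF/F, immune nuclei had the highest WT mean, from 69.4 and 116 CPM, and overlapped with most types, and no type was called.

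Of 31 other Mediator subunit genes tested in osteoclasts, 3 (9.68%) were called higher, against 19.8% of all genes, and 1 was called lower, with a median of -0.03, against -0.07 over all genes. The kinase module genes Cdk8 (0.17), Med13 (0.03), Med13l (-0.22) and Cdk19 (-0.22) were not called. The 3 higher genes, named after their values were seen, were Med6 (0.81), Med8 (0.80) and Med10 (0.63), and the lower one was Med12l (-1.03), and all 4 were called with RLE and with DESeq2 too, with no other call in the list. The WT profile most like that of Med15 over the 15 PTB types was that of Fosl2, a Fos-related transcription factor gene (r = 0.98), followed by Ythdf3 and Rassf1 (both 0.96). In Tbx1+/- libraries r was 0.96, 0.73 and 0.94.

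**Figure D4:**
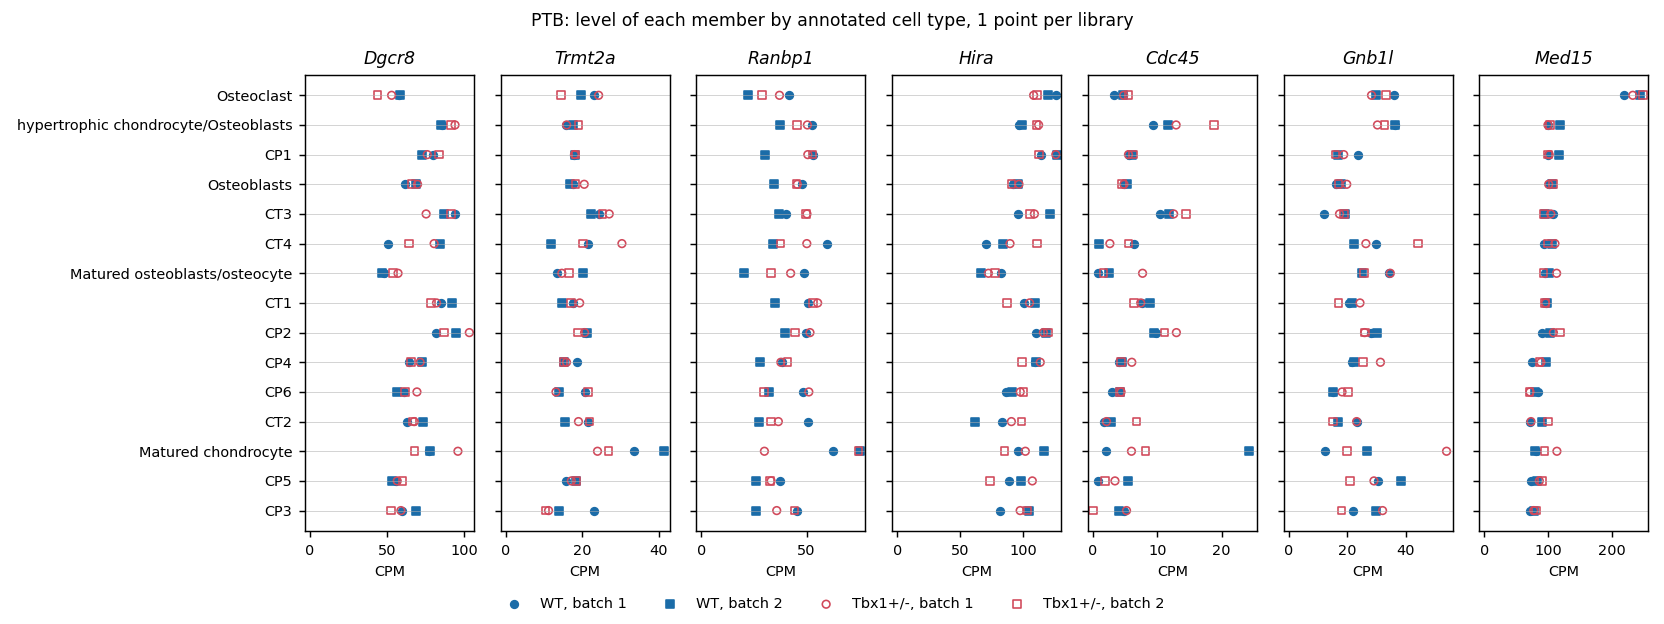
Level of each of the 7 genes in CPM (horizontal axes) in the 15 annotated types of the PTB (rows, ordered by the WT mean of Med15), with 1 point per library, drawn as in the plot of PF/F types. Osteoclasts lie at 219 to 249 CPM in the Med15 panel, apart from the 14 other types, while the type with the highest WT mean overlapped in WT libraries with 2 of the 14 others for Hira and with 1 for Gnb1l.

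No member passed the test of genotype in either tissue. Summed over all annotated nuclei, edgeR called 0 of 20250 genes in the PTB (0.0%) and 0 of 20756 in the PF/F (0.0%), and DESeq2 called 0 in both. Before adjustment 217 and 99 genes had an edgeR p under 0.05, and with the replicate number as a block 1043 and 626, with 0 called and 0 members among them. With 2 libraries against 2, p-values measure the spread between pooled libraries, and an exact permutation test of 1 gene cannot go below p = 0.33. Cdc45 in the PTB was the only member whose libraries did not overlap between genotypes: 5.87 and 6.71 CPM in WT and 7.27 and 7.69 CPM in Tbx1+/- libraries. It was higher within both batches, by 0.31 and 0.20 on the log2 scale, and the fitted change was 0.25 ± 0.16 (edgeR adjusted p = 1.00). The share of G2/M-marked nuclei in the PTB moved the same way, at 21.6% and 18.2% in WT and 25.4% and 21.2% in Tbx1+/- libraries of batches 1 and 2, while the S-marked share was 36.9% and 39.4% against 38.5% and 38.9%. The 27 G2/M markers had a median genotype change of 0.10 in the PTB, against -0.00 over all genes, and none was called. The part of these shares in the Cdc45 change was not tested. Such separation was found for 23.2% of genes with at least 40 UMIs in the PTB and for 17.9% in the PF/F, where it held for 0 members.

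The fitted PTB changes of the other 6 were Ranbp1 0.13 ± 0.20, Med15 0.04 ± 0.10, Hira 0.03 ± 0.09, Trmt2a 0.02 ± 0.12, Dgcr8 0.02 ± 0.09 and Gnb1l -0.01 ± 0.11. Ranbp1 moved in opposite directions in the batches, by -0.06 and 0.38. PF/F changes were smaller than their SE in this fit, which has no replicate block, so that its SEs include the spread between batches. Cdc45 had 0.11 ± 0.25, Hira 0.02 ± 0.12, Med15 0.02 ± 0.12, Dgcr8 -0.00 ± 0.11, Ranbp1 -0.04 ± 0.28, Trmt2a -0.07 ± 0.13 and Gnb1l -0.07 ± 0.12. For Gnb1l both batches were lower, with -0.02 and -0.15. The difference of the genotype change between the tissues was -0.18 to -0.02 on the log2 scale for the 7 genes, and none of 22148 genes was called (0.0%).

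Within annotated types, 98 of 105 member tests in the PTB and 86 of 112 in the PF/F had enough UMIs for the fit. None was called. Over all genes and types 0.0% of tests were called in the PTB and 0.000598% in the PF/F, that is 1 of 167207, and DESeq2 called 0 and 2. This background moved with the fit, to 71 in the PTB and 60 in the PF/F with the replicate block, while 0 member tests were called. It moved more without WT replicate 1, where WT has 1 library and the spread comes from the Tbx1+/- libraries alone. In the fit without a block, the unadjusted edgeR p was under 0.05 in 0 of the 98 member tests in the PTB, against 1.81% over all genes. In the PF/F it was so in 1 of 86, for Dgcr8, against 1.32%. With the replicate block these were 2 of 98 in the PTB, Cdc45 in the hypertrophic type and Trmt2a in CP3, against 3.93%. In the PF/F the block gave 1 of 86, again for Dgcr8, against 4.28%. In GNPs, where Dgcr8 was highest, the changes within batches were -0.01 and 0.06. Med15 in osteoclasts changed by 0.09 and 0.03 within batches.

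Cdc45 in the hypertrophic chondrocyte and osteoblast type had the lowest unadjusted p of the gene. It was higher in Tbx1+/- libraries of both batches, by 0.47 and 0.70, with a fitted change of 0.59 ± 0.27 (edgeR adjusted p = 1.00). The G2/M-marked share of this type was higher too, at 23.4% and 20.4% in WT and 27.9% and 24.9% in Tbx1+/- libraries. Its S-marked share was 38.0% and 43.3% in WT and 39.4% and 39.2% in Tbx1+/- libraries of batches 1 and 2, so it was lower in batch 2. The part of these shares in the change was not tested. In CP3, Trmt2a was at 23.1 and 13.8 CPM in WT and 11.19 and 10.4 CPM in Tbx1+/- libraries, a change of -0.80 ± 0.38 (edgeR adjusted p = 1.00). Neither passed the test. Of the genes of all 10 lists, 0 of 214 tested were called by genotype in either tissue, and 0 had an unadjusted p under 0.05 in either tissue with edgeR. Their median change was 0.04 in the PTB and 0.01 in the PF/F. For the 22q11.2 list, which holds the members and their neighbours, the medians were 0.03 and -0.00 over 36 genes tested.

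**Figure D5:**
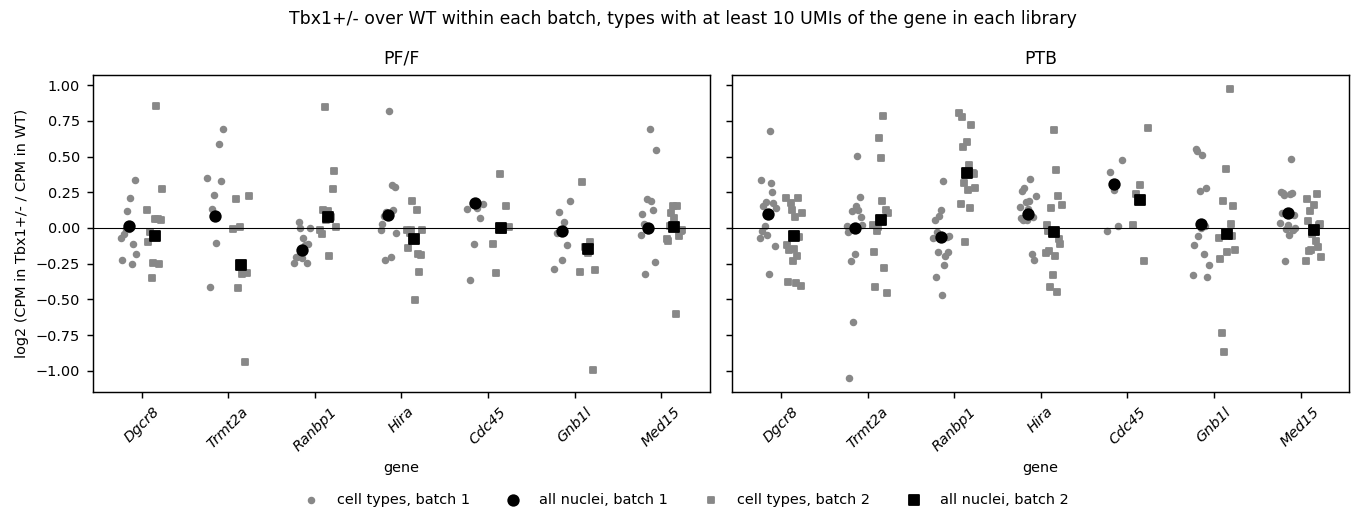
Log2 ratio of the level in Tbx1+/- over WT libraries within batch 1 (circles) and batch 2 (squares) for each gene, in all annotated nuclei (black) and in the plotted types with at least 10 UMIs of the gene in each library (grey, with the same 14 PF/F types). Black points lie between -0.26 and 0.38 on both sides of 0, and both black points of Cdc45 in the PTB lie above 0, at 0.31 and 0.20.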

How the data were processed

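The deposited raw UMI counts, made with Cell Ranger 7.0.0 per the submitters' processing notes, were used for 8 libraries of 10x 3′ single-nucleus RNA. The authors counted intronic reads on mm10, corrected free RNA with SoupX in their own analysis, which the deposited counts do not hold, removed nuclei of low gene number and outliers, and assigned cell types by label transfer and curation. Only barcodes in their annotation were used here, and no doublet caller was run. Counts were summed per library over each type, over all annotated nuclei, and over cycle-marked nuclei.

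Types (each against the mean of the others, with library as a term) and marked against unmarked nuclei were compared with edgeR 4.0.16 (filterByExpr, TMM, quasi-likelihood F test) on R 4.3.3, using all genes and Benjamini-Hochberg adjustment. Genotypes were compared with the same test. Types needed at least 10 nuclei in a library. Calls needed an adjusted p under 0.05 and a change above 1.5-fold, and SEs were derived from the F statistic. Alternatives were RLE factors, DESeq2 1.42.0, no filter, 1 library left out, 1 genotype alone, no nuclei among the 8% with most UMIs, at least 3 marker UMIs, and a replicate block. Deviations of same-batch libraries from their genotype means correlated with r of 0.550 (PTB) and 0.708 (PF/F), and the study describes 2 batches. The edgeR and DESeq2 scripts were tested on simulated data. Intervals and limits cover counting error only. The limit for 0 UMIs was set at 3 counts.

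The members and gene lists were chosen with earlier results of these data known. Named were the 7 members, Tbx1, up to 4 genes with the highest mean CPM of each of 10 lists (genes outside this are marked in the text), and the 3 genes per member with the most similar WT profile, on log2(CPM + 1). Promoter windows came from RefSeq. A gene of similar profile and 2 PF/F types that entered the fits are not reported here.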

Additional observations from a re-analysis of the deposited data

How the results depend on the processing

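With 2 libraries per genotype and tissue, only large genotype changes could pass, and types with few nuclei (pericytes, endothelial cells, Progenitors) gave few UMIs. The number of members called was 0 by genotype under every setting, also with the replicate block, in whole tissues, per type and for the tissue by genotype term. Over all genes and types the genotype calls, 0 in the PTB and 1 in the PF/F, were 71 and 60 with the replicate block and 96 and 38 with no filter. Genotype fits with 1 library left out hold 1 library of a genotype, so that the spread comes from the other genotype alone. Their calls moved too, and their counts are not given. Genotype changes of members in whole tissues, none of them called, changed sign in 18 combinations of gene, tissue and setting. Leaving out 1 library each, the PTB ranges were -0.0307 to 0.0714 for Dgcr8, -0.0285 to 0.0835 for Trmt2a, -0.121 to 0.447 for Ranbp1, -0.0542 to 0.0415 for Gnb1l and -0.0363 to 0.134 for Med15, and PTB Gnb1l was 0.0453 without the nuclei with most UMIs. The PF/F ranges were -0.0819 to 0.0558 for Dgcr8, -0.213 to 0.0585 for Trmt2a, -0.356 to 0.353 for Ranbp1, -0.0575 to 0.103 for Hira, -0.215 to 0.374 for Cdc45, -0.141 to 0.00981 for Gnb1l and -0.0467 to 0.0798 for Med15. Member calls between types numbered 6 to 10 in the PTB and 7 to 12 in the PF/F. Counts of called genes differed more. In PTB G2/M-marked nuclei with at least 3 marker UMIs, 2 members were called, and 1051 genes against 533. S-marked PTB nuclei gave 523 against 333 genes. S-marked GNPs gave 564 genes (497 higher, 67 lower), 371 with RLE (262 and 109), 287 with DESeq2 (171 and 116) and 363 without Tbx1+/- replicate 1. G2/M-marked GNPs gave 789 higher and 136 lower, then 463 and 239 with RLE and 355 and 304 with DESeq2. Interneuron progenitors gave 2490 higher and 1437 lower, then 1983 and 1842 with RLE and 1881 and 2672 with DESeq2. With DESeq2, astroglia went from 2931 and 1106 to 2432 and 2245, and oligodendrocytes from 2242 and 1047 to 1934 and 1729. The type annotated as Progenitors went from 2966 and 2391 to 3570 and 1624 with RLE and 3669 and 1530 with DESeq2, with 5357 genes in all, 2374 without the nuclei with most UMIs and 3333 in WT libraries alone. In WT libraries alone, pericytes gave 992 against 2447 genes and endothelial cells 2163 against 3930. The cause was not tested.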
